A study of Saccharomyces cerevisiae with 6 samples.

Results

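The 39 genes described here encode the enzymes that carry glucose through glycolysis and fermentation in the budding yeast *Saccharomyces cerevisiae*, together with the enzymes of gluconeogenesis, of acetate and glycerol formation, and the kinases that make fructose 2,6-bisphosphate. They were taken by name, from the hexokinases to pyruvate kinase plus the *PDC*, *ADH*, *ALD*, *ACS* and *GPD* families, *FBP1*, *PCK1*, *PFK26* and *PFK27*, without use of any measured value. All 39 are present among the 5913 genes measured, and all 39 passed the filter on low values. RNA-seq was performed on *not4Δ* cells expressing either Not4RRM or Not4WT, with 3 cultures of each. Not4 is the RING E3 ubiquitin ligase of the Ccr4-Not complex, and Not4RRM carries 3 alanine substitutions in its RRM and C3H1 domains, which are predicted to bind RNA. Both groups shared the BY4741 background (*MATa his3Δ1 leu2Δ0 met15Δ0 ura3Δ0*) and a KANMX replacement of the chromosomal *NOT4* gene, and both carried a centromeric *URA3* plasmid in which the *ADH1* promoter drives Not4 with a C-terminal FLAG tag. Cells were grown to log phase in synthetic medium lacking uracil, with glucose as the carbon source. The comparison asks whether the RRM and C3H1 domains of Not4 contribute to transcript levels of these genes. It has limits as a model, since *NOT4* was read from a plasmid under a constitutive promoter in both groups. That promoter is the one of a member gene, and cells with chromosomal *NOT4* were not analysed here. The *NOT4* transcript was also higher in Not4RRM cells, so the substitutions and the level of *NOT4* differed together between the groups. The part of the *NOT4* level in the members' values was not tested. Because RNA came from whole cultures, less RNA per cell and fewer cells of one state cannot be told apart.

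Glycolysis splits glucose into pyruvate and yields ATP and NADH, and yeast growing on glucose ferments most of the pyruvate to ethanol even in air, a habit known as the Crabtree effect. Pyruvate decarboxylase and alcohol dehydrogenase return the NADH to NAD+ on the way to ethanol, and glycerol formation does so as a side route. Many steps have more than a single gene, with a major isoenzyme expressed on glucose and minor ones that are repressed by glucose or induced by stress. Gluconeogenesis runs the pathway backwards on non-fermentable carbon, and its own enzymes, Fbp1 and Pck1, are repressed while glucose is present. The glycolytic genes are known for very strong promoters, in which the factors Rap1 and Gcr1 bind close together, while Mig1 represses genes of alternative carbon use.

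The upstream sequences of the members carried this Rap1 and Gcr1 arrangement more often than genes in general did. Within the 700 bases before the coding start, 10 of 39 members (25.6%) held the Rap1 motif ACCCNNACA on either strand, against 7.37% of the 5999 genes of the R64 assembly. The Gcr1 motif CTTCC is short and common, and was found in 33 members (84.6%) and in 77.9% of all genes. A Rap1 motif within 60 bases of a Gcr1 motif was found in 6 members (15.4%), *PFK2*, *PGK1*, *GPM1*, *ENO1*, *CDC19* and *ADH1*, against 1.8% of all genes. Matches were searched on both strands, the letters of the motifs do not overlap at these places, and a match describes the sequence only. No such pair was found before *TDH3*, *ENO2* or *PDC1*, the members with the highest levels per kb. The 6 sequences that hold the pair are shown, among them that of *ADH1*, whose promoter is used on the plasmid. They are RefSeq R64 sequence, read 5′ to 3′ on the strand of the gene, with the Rap1 and Gcr1 motifs of either strand in capitals.
PFK2, chrXIII:675254-675353, minus strand: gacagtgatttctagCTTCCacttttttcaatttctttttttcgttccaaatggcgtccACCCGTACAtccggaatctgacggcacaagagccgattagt
PGK1, chrIII:137259-137358, plus strand: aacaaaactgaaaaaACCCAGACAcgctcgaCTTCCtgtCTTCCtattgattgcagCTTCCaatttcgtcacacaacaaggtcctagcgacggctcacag
GPM1, chrXI:164695-164794, minus strand: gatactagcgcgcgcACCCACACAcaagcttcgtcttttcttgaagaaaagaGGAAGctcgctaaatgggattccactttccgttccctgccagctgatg
ENO1, chrVII:1000429-1000528, plus strand: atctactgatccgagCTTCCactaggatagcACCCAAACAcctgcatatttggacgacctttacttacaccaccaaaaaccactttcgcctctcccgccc
CDC19, chrI:71119-71218, plus strand: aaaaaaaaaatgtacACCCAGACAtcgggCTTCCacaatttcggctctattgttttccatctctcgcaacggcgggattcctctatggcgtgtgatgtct
ADH1, chrXV:161194-161293, minus strand: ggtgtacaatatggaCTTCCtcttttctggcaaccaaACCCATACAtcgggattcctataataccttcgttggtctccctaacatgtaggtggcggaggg

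A Mig1 motif was found before *HXK1*, *GLK1* and *PFK2*, which are 3 of 39 members (7.69%), against 5.3% of all genes. The motif searched on either strand was WWWWSYGGGG, where W is A or T, S is C or G and Y is C or T. Before *HXK1* there were 2 matches. The stretch with the match nearer the coding start is shown, with that match (read on the other strand) in capitals. *HXK1* was picked since it is the member whose fitted level differed most between the groups.
HXK1, chrVI:255314-255373, minus strand: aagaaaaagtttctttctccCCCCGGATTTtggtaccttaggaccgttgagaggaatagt

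The members are single-exon coding sequences of 744 to 2964 bp spread over 15 chromosomes, and several families are so alike that reads cannot always be assigned to a single gene. The coding starts of the 3 glyceraldehyde-3-phosphate dehydrogenases are printed to show this, with bases that differ from *TDH3* in capitals.
TDH3, chrVII:883721-883810, minus strand: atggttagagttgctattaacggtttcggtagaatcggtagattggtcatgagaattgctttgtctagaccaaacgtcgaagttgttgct
TDH2, chrX:454592-454681, minus strand: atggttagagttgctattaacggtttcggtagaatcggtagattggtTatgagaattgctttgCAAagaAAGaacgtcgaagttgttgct
TDH1, chrX:338271-338360, plus strand: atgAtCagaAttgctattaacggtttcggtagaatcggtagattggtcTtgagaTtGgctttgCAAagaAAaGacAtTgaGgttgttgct
Over the whole coding sequence *TDH2* was 95.8% identical to *TDH3*, and 24.4% of its stretches of 50 bases were also present in *TDH3*. The enolases *ENO1* and *ENO2* were 94.8% identical and shared 23.6% of such stretches, and their first 90 coding bases are the same, as shown for both.
ENO1, chrVII:1000927-1001016, plus strand: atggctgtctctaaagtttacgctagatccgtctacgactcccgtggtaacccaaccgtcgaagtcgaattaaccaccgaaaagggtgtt
ENO2, chrVIII:451327-451416, plus strand: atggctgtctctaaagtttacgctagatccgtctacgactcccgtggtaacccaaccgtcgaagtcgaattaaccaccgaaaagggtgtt
The alcohol dehydrogenases *ADH1* and *ADH2* were 88.8% identical and shared 14% of stretches, while *ALD2* and *ALD3* shared 40.4%. By contrast *HXK1* and *HXK2* were 77.7% identical and shared no stretch of 50 bases. Values of the *TDH*, *ENO*, *ADH1* and *ADH2*, and *ALD2* and *ALD3* genes are therefore uncertain in how they divide between family members, since the handling of reads that fit more than a single gene is not given in the sources used here. *GLK1* also overlaps YCL042W over part of its sequence.

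The samples carried their labels as far as these could be checked. *NOT4* had scaled values of 34334, 41531 and 43399 in Not4RRM cells, against 11876, 12047 and 8883 in Not4WT cells. Both groups thus expressed the plasmid gene, and the groups did not overlap. The log2 fold change of *NOT4* was 1.87 (SE 0.23, limma adjusted p = 0.0715). The plasmid marker *URA3* had values of 9518, 4631 and 4295 in Not4RRM cells, against 1006, 1172 and 1046 in Not4WT cells. Values of *LEU2* and *MET17*, both deleted in BY4741, stayed between 11.1 and 26.8 in all 6 samples. *HIS3*, given in the genotype as *his3Δ1* and not as a Δ0 allele, ranged from 867 to 2594. The extent of that deletion is not given in the sources used here, so its level is no check of the label. Among a-cell genes, *STE2* ranged from 5367 to 12730, *BAR1* from 2584 to 6537, *MFA1* from 628 to 12623 and *MFA2* from 446 to 2374. Among alpha-cell genes, *MF(ALPHA)1* ranged from 2.88 to 13.9, *STE3* from 68.4 to 118 and *MF(ALPHA)2* from 30.45 to 186. Genes of chromosome VIII had a median log2 fold change of 0.65 over 275 genes, whereas the median of all tested genes was 0.05. Not4RRM replicate 1 stood apart from the other Not4RRM cultures, since its deviation from the Not4WT mean fell with coding length over all genes (Spearman rho = -0.54, n = 5795), against -0.17 and -0.18 in Not4RRM replicates 2 and 3. Over all genes the log2 values of Not4RRM replicates 2 and 3 had a Pearson correlation of 0.993. Those of Not4RRM replicate 1 had 0.952 and 0.947 with these 2 cultures. With Not4WT replicates 1, 2 and 3 that culture had 0.963, 0.951 and 0.959. Log2 fold changes, and medians of them, that moved by more than 1.5 times without Not4RRM replicate 1 are given both ways. The deposited values had been scaled to the lowest coverage, so every sample totals between 14881818 and 14881884, the original depth is unknown, and the spread between cultures is the only error given.

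The 39 genes include some of the most abundant transcripts of the cell. They took up 10.9%, 9.96% and 9.15% of all scaled reads in the Not4RRM cultures, against 10.6%, 12.3% and 9.25% in the Not4WT cultures. The means were 10% ± 0.87 in Not4RRM cells and 10.7% ± 1.5 in Not4WT cells (SD, n = 3 each), and the groups overlapped. Per kb of coding sequence, 10 members were among the 100 highest of the 5901 genes with a coding length, and 7 of the 20 genes with the highest scaled values were members. The level per kb of the highest member, *TDH3*, was 4346 times that of the lowest, *PDC6*. *TDH3* encodes the main glyceraldehyde-3-phosphate dehydrogenase, and averaged 298473 scaled reads per kb in Not4RRM cells and 331419 in Not4WT cells. The minor pyruvate decarboxylase gene *PDC6* averaged 75.4 scaled reads per kb in Not4RRM cells and 69.5 in Not4WT cells. After *TDH3* the order by mean level per kb over all 6 samples was *ENO2*, *PDC1*, *GPM1*, *ADH1*, *TDH2*, *FBA1*, *CDC19*, *TPI1* and *PGK1*.

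**Figure D1:**
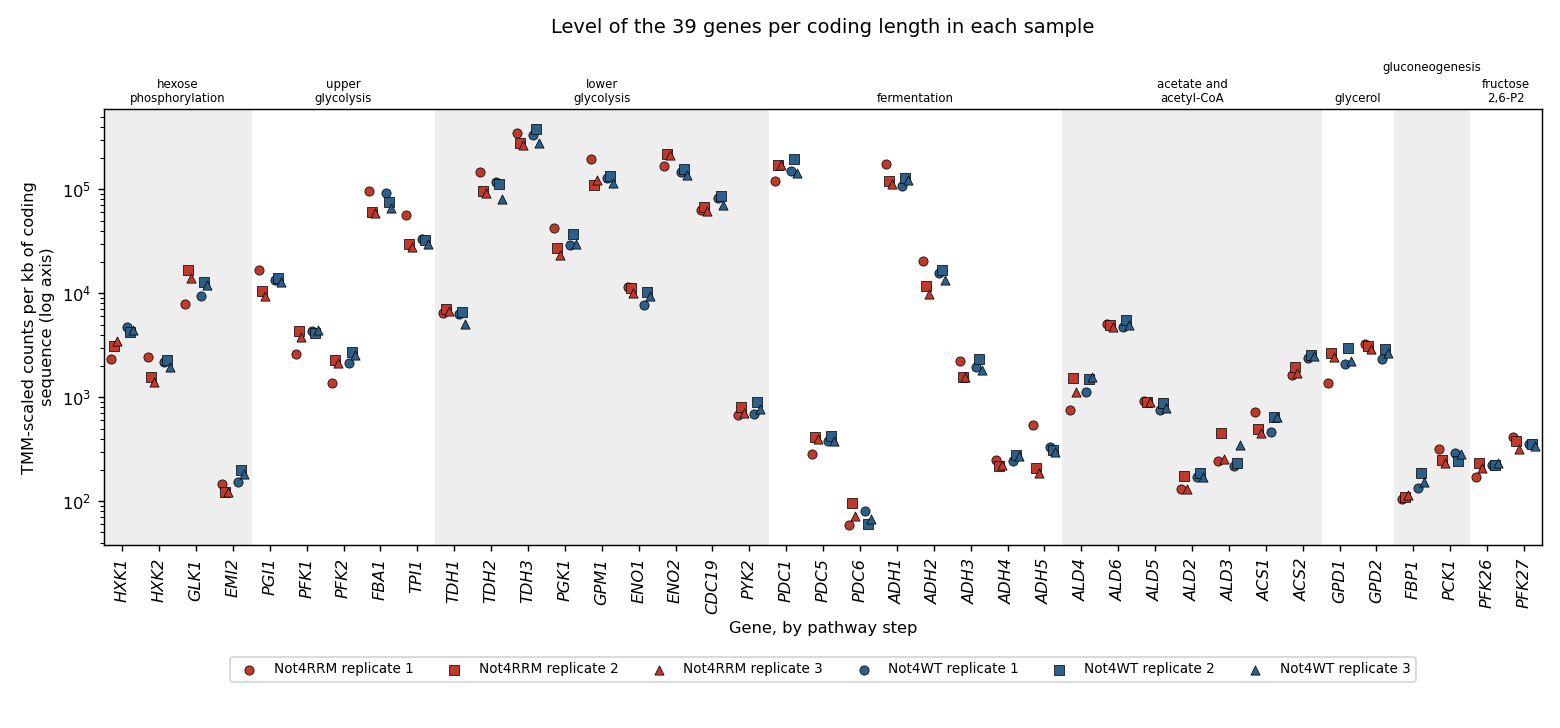
Scaled counts per kb of coding sequence (log axis) for each of the 39 genes, grouped by pathway step, with 1 point per culture (red, Not4RRM; blue, Not4WT). Levels of the genes span a range of 4346 between *TDH3* and *PDC6*, and for most genes the red and blue points overlap.

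Between Not4RRM and Not4WT cells, 0 of the 39 genes passed the threshold of an adjusted p under 0.05 and a 1.5-fold change by limma, with Benjamini-Hochberg adjustment over 5805 genes. The same test called 0 genes in the whole table (0%), and the lowest adjusted p was 0.247 among the members and 0.0715 among all genes. At an unadjusted p under 0.05, limma gave 4 members, all lower in Not4RRM cells: *HXK1*, *FBP1*, *ACS2* and *EMI2*. They make up 10.3% of the members, while 6.06% of all genes were lower at that level. No member was higher at an unadjusted p under 0.05, while 9.84% of all genes were, 923 genes (15.9%) in both directions together. A 1.5-fold lower fitted level was found for 1 member, *HXK1* (2.56%, against 3.58% of all genes), and a 1.5-fold higher one for 0 members (against 13.2% of all genes). The share of all genes depended on the fit. With the trend with coding length removed, genes 1.5-fold higher fell from 765 of 5805 to 429 of 5795, and members stayed at 0. Genes 1.5-fold lower then rose from 208 to 303, and members from 1 to 2. An unequal-variance test on the deposited values, with the cutoffs of the study at 1.5-fold and an unadjusted p under 0.05, gave 2 members lower, *HXK1* and *ACS2* (5.13%, against 3.81% of all genes), and 0 higher (against 2.2%). The study then adjusted p over the genes that passed. Every p in that list was already under 0.05, so this step could not remove a gene, and both members and all 355 genes stayed. Adjustment of that test over all genes left 0 members and 0 genes.

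The fitted log2 fold change was negative for 26 members (66.7%, against 45.1% of all genes) and positive for 13 (33.3%, against 54.9%), with a median of -0.12, against 0.05 for all tested genes. The 95% interval included 0 for 35 of the 39 members. For 8 members (*PYK2*, *PDC5*, *ADH4*, *ALD6*, *ALD5*, *PCK1*, *PFK26* and *PFK27*) the interval lay inside a 1.5-fold change in both directions. The widest interval, that of *ADH5*, spanned 1.76 on the log2 scale, running from -1.07 to 0.69. All 3 Not4RRM cultures were below all 3 Not4WT cultures for 5 members, *HXK1*, *EMI2*, *CDC19*, *ACS2* and *FBP1* (12.8%, against 12.2% of all genes), and above them for *ENO2* and *ALD5* (5.13%, against 12.4% of all genes). With the deposited totals left equal, the median of all genes moved to -0.075 and that of the members to -0.25, with 29 members negative and 10 positive. In that scaling 11 members (28.2%, against 18.7% of all genes) lay below Not4WT in all cultures and 0 above (against 8.18%). At an unadjusted p under 0.05 that scaling gave 0 members higher (against 6.51% of all genes) and 4 lower (against 10.9%), the same counts as with the scaling used here. Over all genes it gave 378 higher and 634 lower, whereas the scaling used here gave 571 higher and 352 lower. With the scaling used here but without Not4RRM replicate 1, the median was -0.137 for the members and -0.003 for all tested genes.

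**Figure D2:**
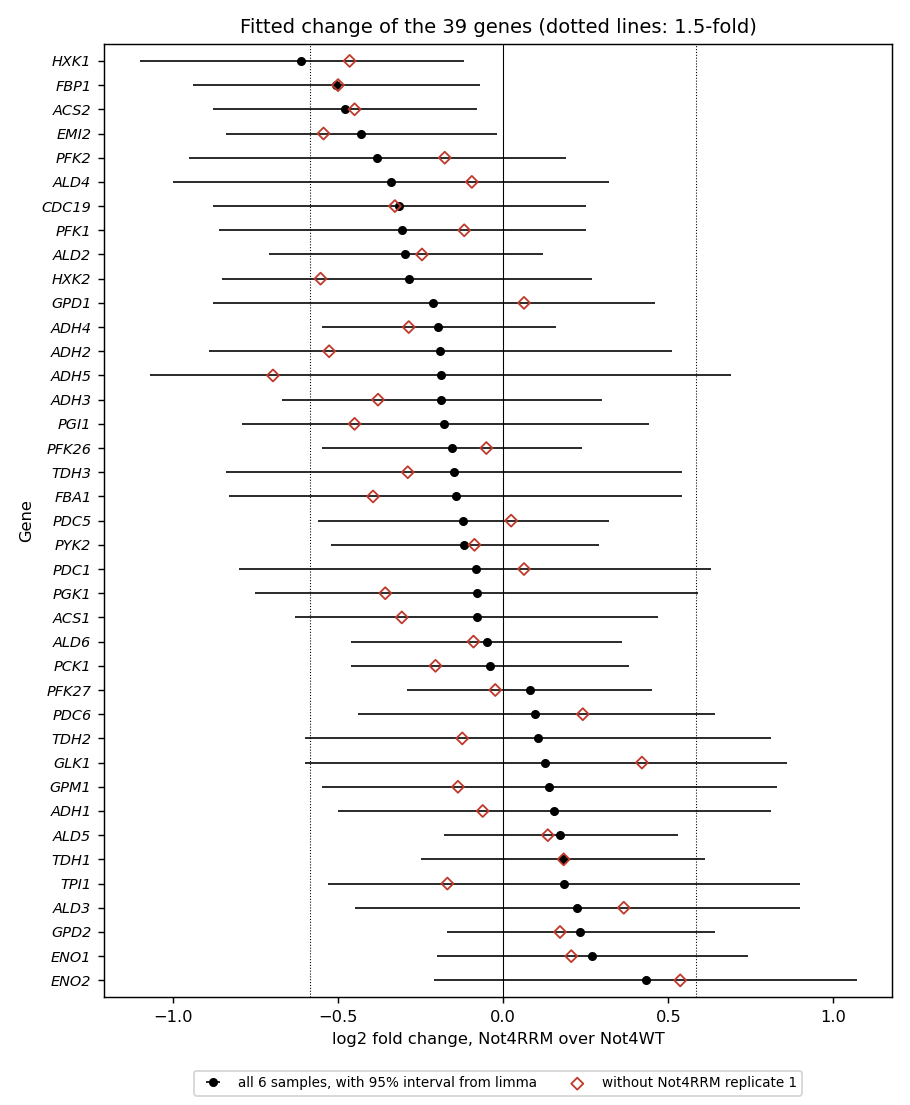
Fitted log2 fold change of each gene, Not4RRM over Not4WT, from all 6 samples with its 95% interval (black) and without Not4RRM replicate 1 (open red diamonds); dotted lines mark a 1.5-fold change. The intervals of 35 of 39 genes include 0, and with all 6 samples only *HXK1* lies past the 1.5-fold line.

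The first step, phosphorylation of glucose, held 2 of the 4 genes with an unadjusted p under 0.05. *HXK1* encodes hexokinase isoenzyme 1, which is repressed by glucose (YFR053C, chrVI:253592-255049, minus strand). It had scaled counts of 3365, 4548 and 5098 in Not4RRM cells, against 6857, 6228 and 6537 in Not4WT cells. Every Not4RRM culture was thus below every Not4WT culture, with replicate 1 lowest. The log2 fold change was -0.61 (SE 0.21, limma unadjusted p = 0.0203, adjusted p = 0.247), and -0.46 without Not4RRM replicate 1. *EMI2* encodes a paralog of glucokinase with a role in sporulation (YDR516C, chrIV:1474974-1476476, minus strand), and had values of 221, 183 and 185 in Not4RRM cells, against 228, 299 and 272 in Not4WT cells. The groups did not overlap, although Not4RRM replicate 1 and Not4WT replicate 1 lay close together. Its log2 fold change was -0.43 (SE 0.18, limma unadjusted p = 0.0411, adjusted p = 0.296).

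The other glucose-phosphorylating genes, *HXK2* and *GLK1*, had a limma unadjusted p of 0.271 and 0.697, and each spread widely among Not4RRM cultures. *HXK2*, the hexokinase used on glucose and a partner of Mig1, had a log2 fold change of -0.29 with all cultures and -0.55 without Not4RRM replicate 1. *GLK1*, the glucokinase gene, had 0.13 with all cultures and 0.42 without that replicate. Of the summed level per kb of these 4 genes, *HXK1* made up 16.9% ± 2.08 in Not4RRM cells and 24.8% ± 3.48 in Not4WT cells (SD, n = 3 each). *GLK1* made up 71.1% ± 8.26 in Not4RRM cells and 62.4% ± 4.59 in Not4WT cells. *HXK2* made up less than either in the group means, 11.2% ± 6.81 in Not4RRM cells and 11.8% ± 1.42 in Not4WT cells.

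Upper glycolysis, from phosphoglucose isomerase to triose phosphate isomerase, had 1 positive and 4 negative fitted values, with a median of -0.18. *FBA1*, the aldolase gene, had values of 103682, 65643 and 63916 in Not4RRM cells, against 99481, 82476 and 71425 in Not4WT cells. *TPI1*, the triose phosphate isomerase gene, had values of 42414, 22090 and 20615 in Not4RRM cells, against 24659, 24135 and 22076 in Not4WT cells. For both genes Not4RRM replicate 1 was the highest of the 6 samples and Not4RRM replicate 3 the lowest, so the groups overlapped. The log2 fold change of *TPI1* was 0.18 with all cultures and -0.17 without Not4RRM replicate 1. *PFK1* and *PFK2* encode the alpha and beta subunits of phosphofructokinase, the committed step of glycolysis, and had log2 fold changes of -0.31 and -0.38. These are the longest members, and Not4RRM replicate 1 was the lowest sample for both. Their log2 fold changes without it were -0.12 for *PFK1* and -0.18 for *PFK2*. *PGI1*, the phosphoglucose isomerase gene, had a log2 fold change of -0.18 with all cultures and -0.45 without Not4RRM replicate 1, and *FBA1* had -0.14 and -0.39.

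Lower glycolysis was the only step with more than 2 genes in which positive fitted values outnumbered negative ones, 5 of 9, with a median of 0.11. This count became 4 of 9 with equal totals and 3 of 9 with the length trend removed or without Not4RRM replicate 1. The median became -0.019 with equal totals, -0.105 with the length trend removed and -0.124 without that culture. *ENO2* encodes the major enolase on glucose and lies on chromosome VIII (YHR174W, chrVIII:451327-452640, plus strand). It had values of 218108, 289028 and 280722 in Not4RRM cells, against 194145, 205131 and 181137 in Not4WT cells. All Not4RRM cultures were above all Not4WT cultures, with replicate 1 closest to them. Its log2 fold change was 0.43 (SE 0.28, limma unadjusted p = 0.158, adjusted p = 0.454). The median of the 275 chromosome VIII genes was 0.65, so *ENO2* lay 0.21 below the median of its chromosome, and 27.6% of those genes had a lower fold change. The median deviation of chromosome VIII genes from the Not4WT mean was 0.37, 0.80 and 0.79 in Not4RRM replicates 1, 2 and 3. The part of the chromosome in the *ENO2* value was not tested.

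*CDC19* encodes pyruvate kinase, the last step of glycolysis (YAL038W, chrI:71786-73288, plus strand). It had values of 94369, 101094 and 92284 in Not4RRM cells, against 123545, 129186 and 106231 in Not4WT cells. The groups did not overlap, but the log2 fold change of -0.32 (SE 0.24) had an adjusted p of 0.527 by limma, and it was -0.33 without Not4RRM replicate 1. *TDH3* had values of 347858, 281338 and 265328 in Not4RRM cells, against 333853, 382061 and 277348 in Not4WT cells. Its paralog *TDH2* had values of 145431, 96772 and 92952 in Not4RRM cells, against 117424, 111538 and 80232 in Not4WT cells. Both overlapped between the groups, with log2 fold changes of -0.15 for *TDH3* and 0.11 for *TDH2*, which became -0.29 and -0.12 without Not4RRM replicate 1.

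*PGK1*, the phosphoglycerate kinase gene, had values of 53559, 34471 and 29048 in Not4RRM cells, against 36633, 46170 and 37452 in Not4WT cells. *GPM1*, the phosphoglycerate mutase gene and the shortest member, had values of 145849, 82333 and 91102 in Not4RRM cells, against 94950, 99950 and 86511 in Not4WT cells. For both, the Not4RRM cultures lay on both sides of the Not4WT cultures, and replicate 1 was the highest of all 6 samples. Without that replicate, *PGK1* had a log2 fold change of -0.36 and *GPM1* of -0.14, against -0.08 and 0.14 with it. The minor genes *TDH1* and *ENO1* had log2 fold changes of 0.18 and 0.27, and *PYK2*, a glucose-repressed pyruvate kinase, had -0.12.

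Fermentation, through pyruvate decarboxylase and alcohol dehydrogenase, had 2 positive and 6 negative fitted values, with a median of -0.15. *PDC1*, the major pyruvate decarboxylase gene, had values of 204521, 291191 and 291554 in Not4RRM cells, against 256553, 334556 and 240564 in Not4WT cells. *ADH1*, which reduces acetaldehyde to ethanol, had values of 181852, 125392 and 118081 in Not4RRM cells, against 112983, 134286 and 128503 in Not4WT cells. The groups overlapped for both genes. The log2 fold change of *ADH1* was 0.16 (SE 0.28, limma adjusted p = 0.803), and -0.06 without Not4RRM replicate 1, which was the highest of the 6 samples. *PDC1* made up 99.7% of the pyruvate decarboxylase level per kb in both groups, and *ADH1* made up 89.4% ± 1.28 of the alcohol dehydrogenase level in Not4RRM cells and 87.0% ± 1.53 in Not4WT cells (SD, n = 3 each). *ADH2* made up 9.03% ± 1.3 of the alcohol dehydrogenase level in Not4RRM cells and 11.1% ± 1.39 in Not4WT cells. The genes *PDC5*, *PDC6*, *ADH2*, *ADH3* and *ADH4* had log2 fold changes of -0.12, 0.10, -0.19, -0.19 and -0.20. Without Not4RRM replicate 1, *PDC5* had 0.024, *PDC6* 0.24, *ADH2* -0.53 and *ADH3* -0.38, and *PDC1* had 0.06, against -0.08 with it.

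*ADH5*, a minor alcohol dehydrogenase gene, was the member most changed by a single culture. It had values of 573, 220 and 197 in Not4RRM cells, against 350, 331 and 317 in Not4WT cells, and is described here after its values were seen. Not4RRM replicate 1 was the highest of all samples, and the other Not4RRM cultures were below every Not4WT culture. The log2 fold change was -0.19 with all cultures (limma adjusted p = 0.828) and -0.70 without Not4RRM replicate 1 (limma adjusted p = 0.0401). Over the settings tried, its adjusted p by limma ranged from 0.0401 to 0.99.

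Acetate and acetyl-CoA formation had 2 positive and 5 negative fitted values, with a median of -0.08. *ACS2* encodes the acetyl-CoA synthetase that is essential on glucose and supplies acetyl-CoA for lipids and histone acetylation (YLR153C, chrXII:445524-447575, minus strand). It had values of 3375, 4038 and 3536 in Not4RRM cells, against 4861, 5208 and 5166 in Not4WT cells. The gap between the groups was wider than the range within either of them. It had a log2 fold change of -0.48 (SE 0.17, limma unadjusted p = 0.0241, adjusted p = 0.254), which ranged from -0.55 to -0.45 when each sample was left out in turn. The glucose-repressed *ACS1* had a log2 fold change of -0.08 with overlapping groups. *ALD5*, a mitochondrial aldehyde dehydrogenase gene (YER073W, chrV:304030-305592, plus strand), had values of 1452, 1418 and 1399 in Not4RRM cells, against 1190, 1374 and 1229 in Not4WT cells. Its Not4RRM cultures were above all Not4WT cultures by a small margin, with a log2 fold change of 0.17 (SE 0.15). *ALD6*, the main cytosolic enzyme making acetate on glucose, had -0.05, and *ALD4*, *ALD2* and *ALD3* had -0.34, -0.30 and 0.22. Without Not4RRM replicate 1 the value of *ALD4* was -0.095, that of *ALD6* -0.09, that of *ALD3* 0.37 and that of *ACS1* -0.31.

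The genes of gluconeogenesis were expressed at low levels in both groups. *FBP1* encodes fructose-1,6-bisphosphatase (YLR377C, chrXII:873746-874792, minus strand), and had values of 110, 115 and 120 in Not4RRM cells, against 139, 197 and 160 in Not4WT cells. All Not4RRM cultures were below all Not4WT cultures and close to each other. The log2 fold change was -0.51 (SE 0.19, limma unadjusted p = 0.028, adjusted p = 0.267), and -0.50 without Not4RRM replicate 1. *PCK1*, which encodes phosphoenolpyruvate carboxykinase, had a log2 fold change of -0.04 with overlapping groups. The glycerol-3-phosphate dehydrogenase genes *GPD1*, induced by osmotic stress, and *GPD2*, induced without oxygen, had log2 fold changes of -0.21 and 0.23. The 6-phosphofructo-2-kinase genes *PFK26* and *PFK27*, whose product activates phosphofructokinase, had -0.16 and 0.08. Without Not4RRM replicate 1 the values were -0.20 for *PCK1*, 0.06 for *GPD1*, -0.05 for *PFK26* and -0.02 for *PFK27*.

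**Figure D3:**
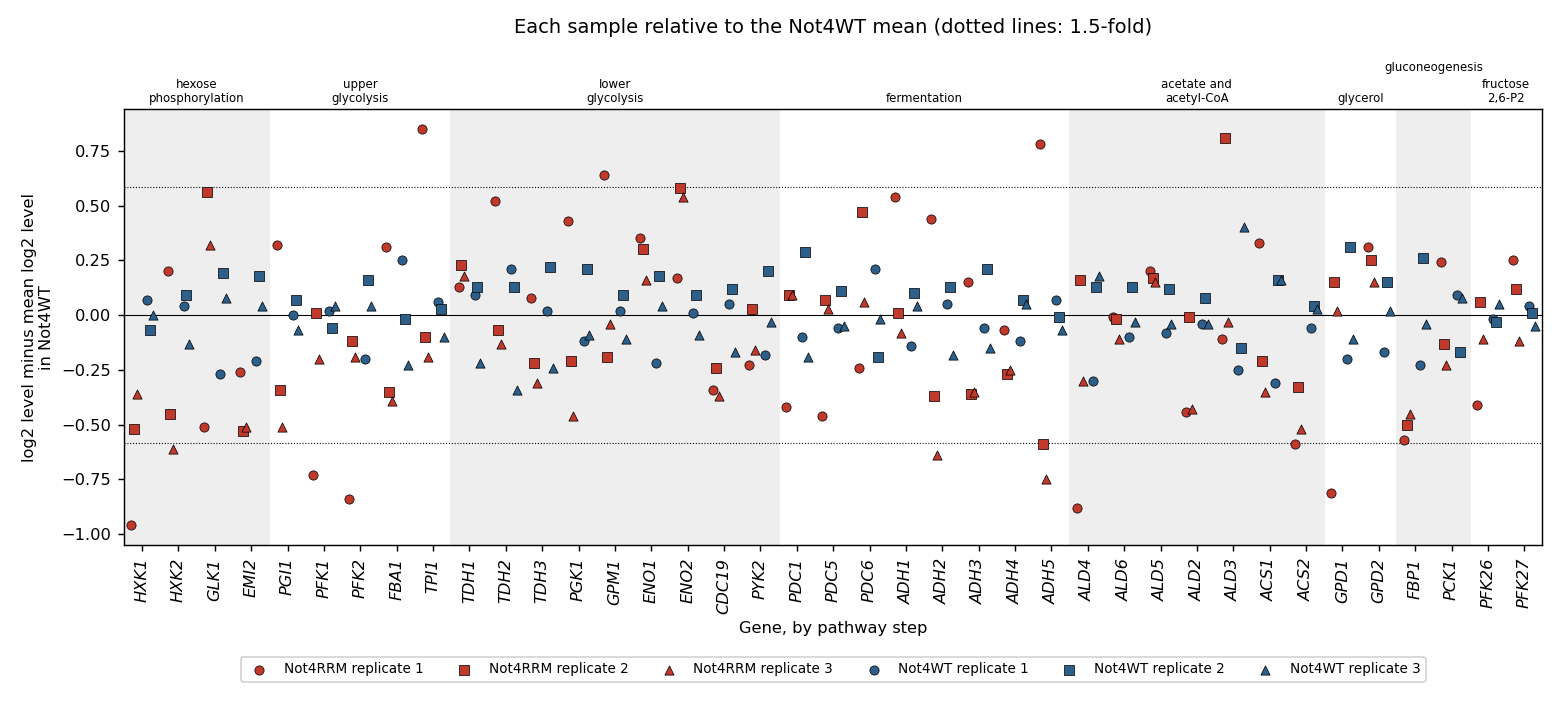
Log2 level of each gene in each culture minus the mean log2 level of the Not4WT cultures (red, Not4RRM; blue, Not4WT); dotted lines mark a 1.5-fold difference. Not4RRM replicate 1 (red circles) is the highest of the 6 samples for 16 genes and the lowest for 14, while Not4RRM replicates 2 and 3 lie close together.

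Not4RRM replicate 1 was at an extreme for most members. It was the highest of the 6 samples for 16 of 39 members (30.7% of all genes), whose median coding length was 1222.5 bp, and the lowest for 14 (25.3% of all genes), whose median was 1626 bp. Over the 39 members its deviation had a Spearman rho of -0.54 with coding length, against 0.23 and 0.06 for Not4RRM replicates 2 and 3, and -0.29, -0.20 and 0.57 for Not4WT replicates 1, 2 and 3, as a description over genes of the same libraries. Not4WT replicate 3 thus had a relation of similar size and opposite sign over the members, while over all genes the Not4WT cultures had -0.15, 0.27 and -0.21. The median SD of a member within the Not4RRM group was 0.29 on the log2 scale and 0.09 without replicate 1, against 0.16 within the Not4WT group. Without that culture limma called 372 of 5793 genes (6.42%), 230 higher (3.97%) and 142 lower (2.45%), and 1 of 39 members, *ADH5*, which was lower. At an unadjusted p under 0.05, 9 members were then lower (23.1%, against 14.5% of all genes), *HXK1*, *HXK2*, *EMI2*, *PGI1*, *ADH2*, *ADH3*, *ADH5*, *ACS2* and *FBP1*, and 0 were higher (against 14.7%). The groups were then apart for 15 members lower in Not4RRM cells (38.5%, against 26.7% of all genes) and 3 higher (7.69%, against 25.7%). Without each of the other samples in turn, limma called 0 members, and 1 or 2 were lower at an unadjusted p under 0.05, compared with the 4 from all 6 samples. The part of transcript length or of this culture in the members' values was not tested beyond these fits.

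**Figure D4:**
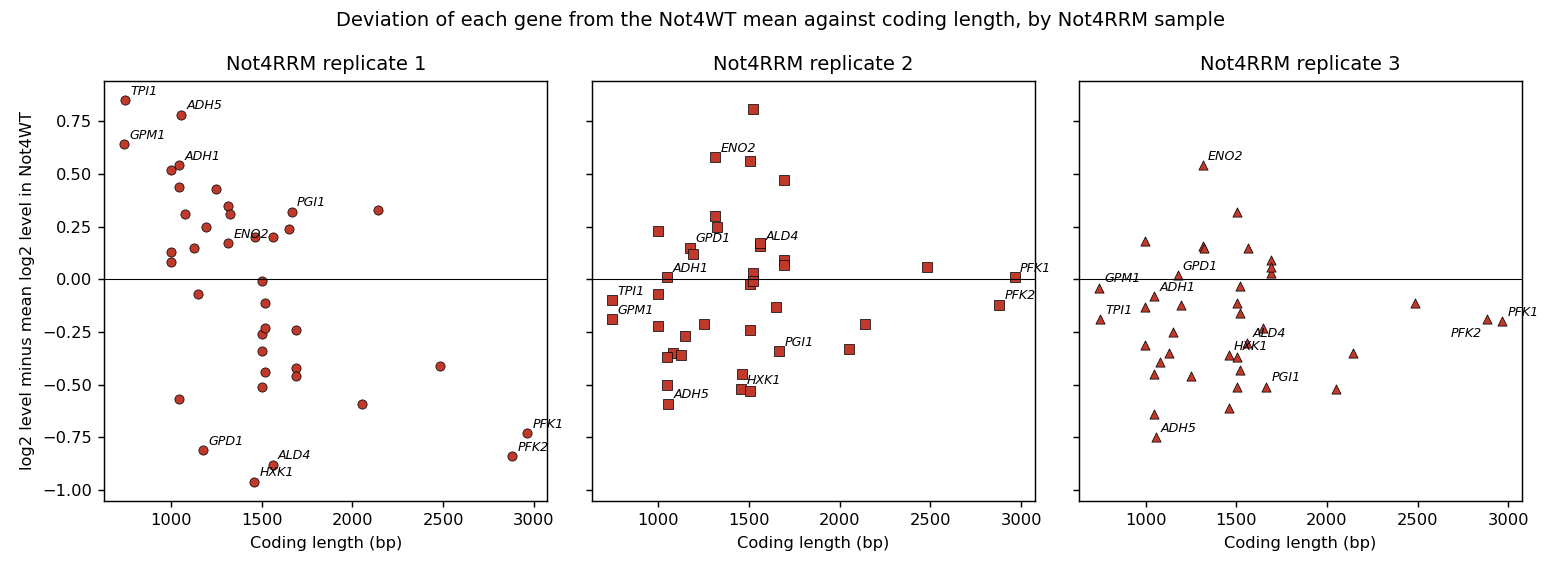
Log2 level of each gene in a Not4RRM culture minus the Not4WT mean, against coding length in bp, with a panel for each Not4RRM culture and selected genes named. Short genes such as *TPI1* and *GPM1* are high and long genes such as *PFK1* and *PFK2* low in replicate 1 (rho = -0.54), and the other panels do not show this slope (0.23 and 0.06).

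The balance between isoenzymes was compared within each sample, where it does not depend on how samples are scaled. Of 14 isoenzyme ratios, 1 did not overlap between the groups, that of the mitochondrial *ADH3* to *ADH1*. Its log2 values were -6.17, -6.14 and -6.05 in Not4RRM cells, against -5.69, -5.67 and -5.97 in Not4WT cells. The difference was -0.34 (two-sided exact permutation p = 0.1, adjusted p = 0.6 over the 14 ratios), and 3 cultures against 3 cannot give a p below 0.1. The log2 ratio of *HXK1* to *HXK2* was -0.09, 0.99 and 1.32 in Not4RRM cells, against 1.10, 0.91 and 1.19 in Not4WT cells. Only Not4RRM replicate 1 lay away from the other samples, and the difference of -0.33 became 0.09 without it. The log2 ratio of *ADH2* to *ADH1* differed by -0.35, with overlapping groups (two-sided exact permutation p = 0.2, adjusted p = 0.6).

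Other genes around the pathway were read from the same fit. Of 15 genes of side branches, 0 passed the threshold in limma, 2 were higher and 1 lower at an unadjusted p under 0.05, where 9.84% of all genes were higher and 6.06% lower. Among the 15, *ERR1* and *ERR2* had the same value in every sample, so they are not separate measurements. *ADH7*, a medium-chain alcohol dehydrogenase gene, had values of 223, 278 and 249 in Not4RRM cells, against 81.7, 172 and 114 in Not4WT cells. The groups did not overlap, and its log2 fold change was 1.08 (SE 0.28, limma adjusted p = 0.163). *ERR3*, an enolase-related gene, had a log2 fold change of 0.62, and *PYC2*, a pyruvate carboxylase gene, had -0.81, which became -0.45 without Not4RRM replicate 1.

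Of 14 genes for regulators of the pathway, 0 passed the threshold, 1 was higher and 1 lower at an unadjusted p under 0.05 (9.84% and 6.06% of all genes). *RAP1*, the activator named above, had values of 585, 724 and 612 in Not4RRM cells, against 895, 1112 and 921 in Not4WT cells. Its groups did not overlap, and the log2 fold change was -0.61 (SE 0.17, limma adjusted p = 0.179). *TYE7*, a helix-loop-helix activator of glycolytic genes, had a log2 fold change of 0.57, and *GCR1* and *GCR2* had 0.08 and 0.07, or 0.23 and 0.12 without Not4RRM replicate 1. *MIG1* had 0.41 with all cultures and passed the threshold without Not4RRM replicate 1, at 0.60 (limma adjusted p = 0.0409).

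Of 12 other glucose-repressed genes, 0 passed the threshold, 0 were higher (against 9.84% of all genes) and 4 lower (against 6.06%) at an unadjusted p under 0.05. A negative fitted value was found for 10, against 45.1% of all genes. Without Not4RRM replicate 1 it was found for 8, against 2919 of 5793 genes. *SUC2*, which encodes invertase, had values of 738, 703 and 678 in Not4RRM cells, against 1025, 972 and 999 in Not4WT cells. Each group was tight and the groups were apart, with a log2 fold change of -0.50 (SE 0.14, limma adjusted p = 0.19). The others were *CTA1*, the peroxisomal catalase gene, at -0.36, and the high-affinity hexose transporter genes *HXT6* and *HXT7* at -0.76 and -0.74. *HXT6* and *HXT7* are near-identical copies, so their values are not separate measurements, and the 4 genes give 3 separate ones. The median of the 12 genes was -0.20.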

How the data were processed

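Poly(A) RNA of 3 Not4RRM and 3 Not4WT cultures was sequenced on an Ion Torrent Proton. The authors aligned reads with STAR to yeast R64 (version not given in the sources used here), counted them over transcripts and brought all samples down to the lowest coverage. The deposited values are therefore a score, rounded to whole numbers, and not raw counts, and their counting error is unknown. Scaling removes differences in total and keeps differences in composition.

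The table held 5913 genes and 1 row without a name, which was left out. Of these, 5901 matched coding genes of RefSeq R64. The values were divided by trimmed mean of M-values factors (0.929 to 1.08 relative to equal totals) and are called scaled counts. Genes with at least 10 in 3 samples and a total of 15 were tested (5805) with limma 3.58.1 in R 4.3.3, on log2(value + 1) with a mean-variance trend. This understates changes of low genes. A call needed an adjusted p under 0.05 and 1.5-fold. Isoenzyme ratios used exact permutation tests, and identity and motifs were computed with Biopython 1.88. As nothing says how the cultures were started, p-values measure the spread between these samples.

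The members and gene lists were chosen with earlier results of these data known. All members may be named. Values in every sample are given for members with an unadjusted p under 0.05, a 1.5-fold change or groups that do not overlap, for the 10 highest per kb, and for *ADH1* and *ENO2*. The alternatives were other scalings, pseudocounts, filters and prior variance, a length correction, a replicate block, each sample left out, and the steps of the study (an unequal-variance test per gene on deposited values, with cutoffs on fold and unadjusted p). The study's Benjamini-Hochberg step over the genes that passed, and the same adjustment over all genes, were added after seeing the data. Count models were not used on scaled values.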

Additional observations from a re-analysis of the deposited data

How the results depend on the processing

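The count of members called stayed at 0 in every setting except without Not4RRM replicate 1 and under the cutoffs of the study, which gave 2 members, *HXK1* and *ACS2*, both lower. When each sample was left out in turn, called members ranged from 0 to 1 and members lower at an unadjusted p under 0.05 from 1 to 9, against 4 from all samples. Over all genes the calls ranged from 0 to 372 when a sample was left out, with 4 after removal of the length trend and 355 under the steps of the study. Adjustment over the genes that passed could not remove any, so these 355 genes and 2 members stayed, and adjustment over all genes left 0 of each. Both were added after seeing the data. A constant prior variance gave 1 member higher at an unadjusted p under 0.05 (*ENO2*). The median of the members was -0.25 with equal totals. Of the fitted values of the members over 17 settings, 36 of 663 changed sign, and 22 members kept theirs in every setting. Removal of the length trend turned *TPI1* to -0.056, *TDH2* to -0.011 and *GPM1* to -0.10, with or without the replicate block. Equal totals turned *TDH2* to -0.019, *PDC6* to -0.027 and *PFK27* to -0.043, and the steps of the study turned *TDH2* to -0.010, *PDC6* to -0.004 and *PFK27* to -0.034. The cause was not tested.

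With each sample left out in turn, the log2 fold change changed sign within the range given for *GLK1* (-0.090 to 0.42), *TPI1* (-0.17 to 0.36), *TDH2* (-0.12 to 0.21), *PGK1* (-0.36 to 0.091), *GPM1* (-0.14 to 0.30), *PDC1* (-0.21 to 0.063), *PDC5* (-0.22 to 0.024), *PDC6* (-0.090 to 0.24), *ADH1* (-0.062 to 0.26), *ADH2* (-0.53 to 0.016), *ADH5* (-0.70 to 0.077), *ALD6* (-0.099 to 0.014), *ALD3* (-0.068 to 0.39), *ACS1* (-0.31 to 0.040), *GPD1* (-0.39 to 0.063), *PCK1* (-0.20 to 0.036) and *PFK27* (-0.024 to 0.17). Among the isoenzyme ratios, the difference of *HXK1* to *HXK2* ran from -0.62 to 0.09, of *PFK2* to *PFK1* from -0.18 to 0.03 and of *PDC5* to *PDC1* from -0.13 to 0.03.

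Samples with the same number showed no steady pairing across the groups (correlations of their deviations 0.07, -0.15 and 0.38). For samples with different numbers these correlations ran from -0.37 to 0.30. A replicate block left 3 members lower at an unadjusted p under 0.05 (*HXK1*, *ACS2* and *FBP1*) and 2 with the length trend removed as well (*HXK1* and *FBP1*), and called 0 members in both. The depth of the libraries is unknown, so values near 100, as for *PDC6* and *FBP1*, have an unknown counting error.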

Other observations

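*NOT4* on the plasmid is driven by the *ADH1* promoter, and its level was set against that of the chromosomal *ADH1* gene in each sample, a comparison chosen after the values were seen. The log2 ratio of *NOT4* to *ADH1* was -2.41, -1.59 and -1.44 in Not4RRM cells, against -3.25, -3.48 and -3.85 in Not4WT cells. The groups did not overlap, and the difference was 1.71 on the log2 scale (two-sided exact permutation p = 0.1, the smallest that 3 against 3 can give), and 2.01 without Not4RRM replicate 1. *ADH1* itself overlapped between the groups, and the plasmid marker *URA3* had a log2 fold change of 2.42. Plasmid copy number was not measured.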
